A study of Mus musculus with 18 samples.

Results

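The skeletal myosin heavy chain cluster is a row of 6 genes on mouse chromosome 11: Myh3, Myh2, Myh1, Myh4, Myh8 and Myh13. Its open chromatin was read from ATAC-seq, an assay whose transposase cuts accessible DNA and tags it with sequencing adapters. A peak was counted for the cluster where its summit lay between 66860000 and 67220000 on chromosome 11 (mm9), a window of 360 kb. By this rule 114 of the 400115 peaks in 4 deposited lists belonged to it: 25 in wild-type myoblasts, 27 in MyoD-null myoblasts, 43 in myocytes deposited as wild type and 19 in myocytes deposited as MyoD-null.

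The 12 ATAC-seq samples came from mouse skeletal muscle cells in 4 groups of 3, namely wild-type myoblasts, MyoD-null (MyoD knockout) myoblasts, and myocytes of both genotypes after 24 h of myogenic differentiation. The labels do not say how the MyoD allele was made, how the cells were isolated or how many animals were used. Each group is represented by 1 peak list called on merged reads, so no value below carries an error between replicates and no test between groups was possible. A further 6 samples are RNA-seq of C2C12 cells, a mouse myoblast line, after 24 h of differentiation (3 with CTCF knockdown and 3 controls); their values are not used here.

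For the myocyte lists, the records of genotype contradict each other. Peaks in the list deposited as wild-type myocytes carry names that read MKO-DM, and peaks in the list deposited as MyoD-null myocytes carry names that read WT-DM. In both myoblast lists the names and the labels give the same genotype. Each myocyte list therefore goes by its deposited genotype, and every comparison that involves them is also given with the genotype in the names. The myocyte names carry a prefix that the myoblast names lack, so a difference between stages cannot be told apart from a difference in handling.

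Myosin heavy chains are the motor subunits of the thick filaments of muscle, and each isoform gives a fibre its own speed of contraction. Myh3 encodes the embryonic form and Myh8 the perinatal form. Myh2, Myh1 and Myh4 encode the fast adult forms of type IIa, IIx and IIb fibres, and Myh13 encodes a form of extraocular muscle. MyoD, which binds the short E-box motif, and MEF2 factors, which bind AT-rich sites, act together on many muscle genes, and the isoforms are switched on in turn as muscle matures.

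The promoters of 4 members share a stretch of letters, and those stretches are shown because they are the part of the upstream sequence that the isoforms have in common. All 6 members were matched by symbol in the RefSeq promoter table (GRCm38.p6), which holds the 250 bases before and 50 bases after each gene start, and all 6 lie on the + strand. Each line gives 84 bases in the 5′ to 3′ direction. Capitals mark the longest run that any 4 of the members share, 14 bases common to all 4 and, in Myh1, Myh4 and Myh8, a second run of 15 bases.
Myh2 (chr11:67170842-67170925, + strand): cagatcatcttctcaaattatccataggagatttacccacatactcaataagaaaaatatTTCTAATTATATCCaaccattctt
Myh1 (chr11:67199882-67199965, + strand): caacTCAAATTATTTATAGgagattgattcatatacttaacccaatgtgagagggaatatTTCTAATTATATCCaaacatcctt
Myh4 (chr11:67237594-67237677, + strand): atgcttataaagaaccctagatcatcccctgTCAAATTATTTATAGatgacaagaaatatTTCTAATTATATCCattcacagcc
Myh8 (chr11:67277010-67277093, + strand): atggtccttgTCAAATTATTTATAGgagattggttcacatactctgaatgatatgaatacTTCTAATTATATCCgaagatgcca
These coordinates are of GRCm38.p6 and cannot be set against the mm9 positions of the peaks.

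The shared run TTCTAATTATATCC occurred in 4 of 32851 RefSeq promoter windows, or 0.0122%, read on both strands, and those 4 windows are the ones printed. It begins at position -125 from the gene start in Myh2, -160 in Myh1, -158 in Myh4 and -54 in Myh8. The second run, TCAAATTATTTATAG, occurred in 3 of the 32851 windows, those of Myh1, Myh4 and Myh8, and it contains the letters TATTTA found at the core of MEF2 sites. Neither run occurred in the windows of Myh3 or Myh13.

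Short motifs were searched on both strands. E-box letters (CANNTG) occurred in 4 of the 6 promoter windows: 3 times in Myh4, 2 times each in Myh8 and Myh13, and once in Myh3. They were absent from the windows of Myh2 and Myh1, while 72.3% of all promoter windows held them. The form CAGCTG, which is itself a CANNTG match, occurred in Myh4 alone among the members and in 16.3% of all windows. TATTTA occurred in Myh1, Myh4 and Myh8 and in 13.7% of all windows. The TATA box letters TATAAA occurred in 5 members, all but Myh13, against 13.6% of all windows. The MCAT letters CATTCC, found in many muscle promoters, occurred in Myh1 and Myh4 and in 14.7% of all windows. The serum response letters (CC and GG with any bases between) occurred in Myh2, Myh1, Myh4 and Myh13, beside 73.3% of all windows. In Myh8 the only match to the TATA box letters lay on the opposite strand, inside the second shared run. It overlapped the MEF2 core letters of that run, so these matches are not separate sites. The same run gave such an overlapping match in Myh1 and in Myh4. A match describes letters in a window and does not show that a factor binds there.

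No annotation of mm9 was used, so no peak is assigned to a gene. In the RefSeq gene table the order along the chromosome is Sco1, Myh3, Mir6923, 2310065F04Rik, Gm31285, Myh2, Myh1, Myhas, Myh4, Myh8, n-TPtgg2, Myh13 and Gm40029. Positions below are given as the distance from the start of the window and as mm9 coordinates.

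Depth differed between the lists. The genome-wide background recovered from the deposited values was 8.18 reads per base for wild-type myoblasts and 8.54 for the MyoD-null ones. For the myocytes it was 5.29 in the deposited wild-type list and 6.34 in the deposited MyoD-null list. At these backgrounds the smallest summits listed held 20, 21, 15 and 17 reads, in the same order of lists. Where a list lacks a region, the site may still have been accessible below these limits.

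Both of the following measures of a peak are used. The fold enrichment is the authors' own value for each peak and compares the reads at the summit with the local background, the reads per base expected from the surroundings. The relative height divides the reads at the summit by the genome-wide background of the same list, and so does not fall when the surroundings are themselves rich in reads.

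The myocytes deposited as wild type had the most peaks in the window, although their background was the shallowest. Their density was 11.9 peaks per 100 kb, against 6.94 in wild-type myoblasts, 7.50 in MyoD-null myoblasts and 5.28 in the myocytes deposited as MyoD-null. Peaks covered 7.32% of the window in the former list and 3.25%, 3.31% and 3.10% in the other lists, in the same order. Cluster peaks made up 0.0384% of all peaks of the myocytes deposited as wild type, 0.0255% and 0.0265% of those of wild-type and MyoD-null myoblasts, and 0.0215% of those of the other myocytes.

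In fold enrichment, single peaks of the cluster were slightly below the median of their lists. Median fold enrichment in the cluster was 3.59 in wild-type myoblasts, where the whole list had 3.75. It was 3.56 beside 3.73 in MyoD-null myoblasts, 4.44 beside 4.80 for deposited wild-type myocytes, and 4.23 beside 4.42 in the other myocytes. The range was 2.37 to 8.43, 2.44 to 8.26, 1.69 to 10.5 and 2.60 to 11. A fold enrichment of at least 5 was reached by 8, 5, 18 and 7 peaks, respectively. In the whole lists 24.5%, 24.3%, 46.9% and 39.8% of peaks reached it. On relative height the cluster medians were 4.89, 5.27, 11.2 and 7.73, beside 5.50, 5.50, 8.51 and 7.26 in the whole lists, so both myocyte lists were above their own median and both myoblast lists below it.

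**Figure D1:**
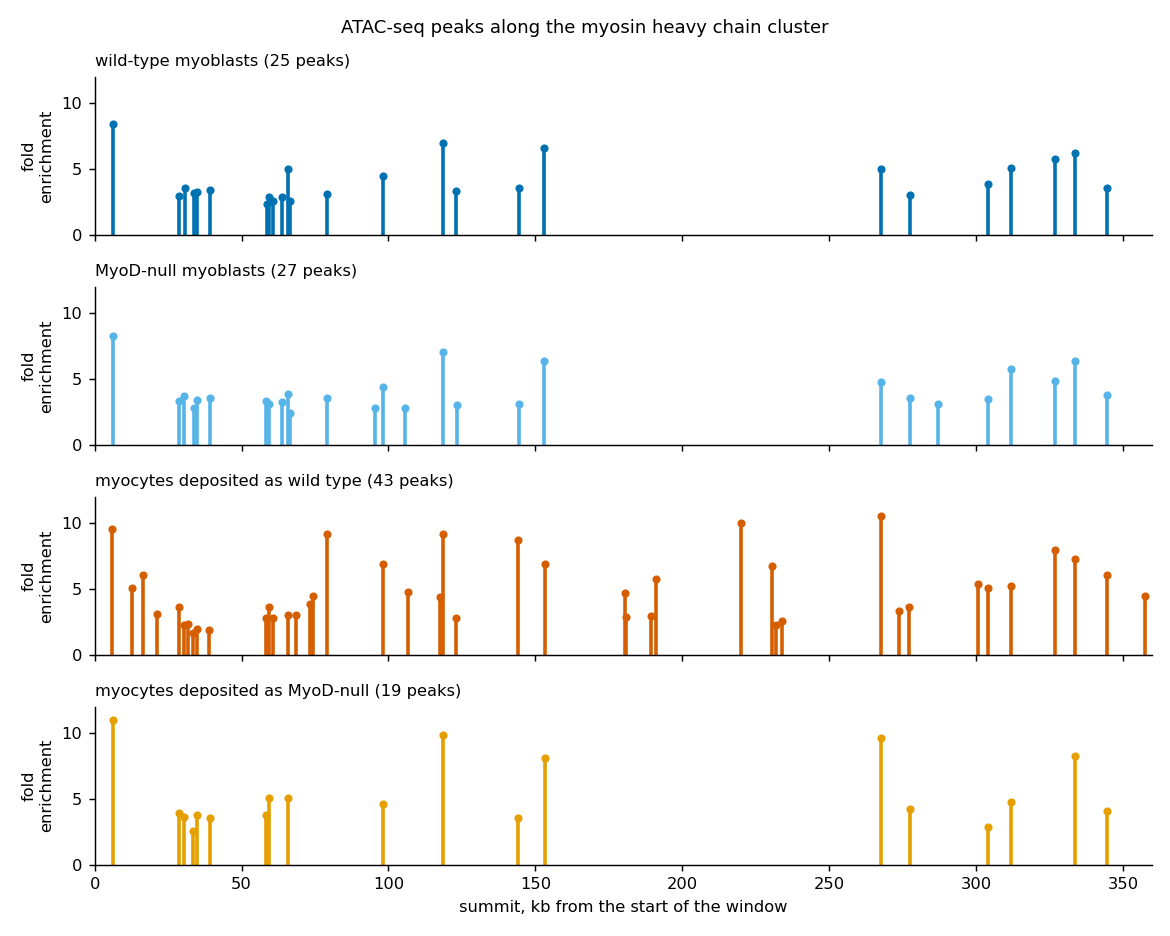
Fold enrichment (vertical axis, ratio) of each cluster peak against the distance of its summit from the start of the window in kb (horizontal axis), with 1 panel per list and 1 stem per peak. The stem near 6 kb is tall in all 4 panels, and between 180 and 240 kb stems appear in the panel of the myocytes deposited as wild type alone.

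Merging the peaks of the 4 lists gave 47 regions in the cluster, of 141979 in the genome. Of these, 19 were listed in all 4 groups (40.4%, against 45.9% of all merged regions). A further 20 were found solely in the deposited wild-type myocytes (42.6%, against 16.3% of all merged regions). The remaining 8 were spread over 4 classes. MyoD-null myoblasts alone had 3 regions (6.38%, against 5.45% of all merged regions). Another 3 were in every list but the myocytes deposited as MyoD-null (6.38%, against 4.87%). Only both myoblast lists shared 1 region (2.13%, against 4.64%). Only wild-type myoblasts and the myocytes deposited as wild type shared 1 region (2.13%, against 1.81%). No region was shared by the myocyte lists while missing from both myoblast lists, and none was particular to the myocytes deposited as MyoD-null. The shares of those empty classes over all merged regions are not given here, so their absence from the cluster cannot be weighed.

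Regions present in every group included the strongest ones of the cluster. The region at 6.1 kb (66865583 to 66866616) had fold enrichments of 8.43 in wild-type myoblasts, 8.26 in MyoD-null myoblasts, 9.58 in the deposited wild-type myocytes and 11 in the deposited MyoD-null ones. Its summit held 129, 132, 157 and 158 reads. By fold enrichment it was the strongest peak of the cluster in every list except the myocytes deposited as wild type. In that list its relative height of 29.7 was still the highest of the cluster.

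At 118.6 kb (66978057 to 66978962) the fold enrichments were 7.01, 7.03, 9.16 and 9.82, in the same order of lists, from 76, 78, 143 and 98 reads. The region at 153.2 kb (67012435 to 67013830) had folds of 6.64, 6.36, 6.90 and 8.11. At 333.6 kb (67193178 to 67194106) they were 6.22, 6.39, 7.28 and 8.22. In these 3 regions, as at 6.1 kb, both myocyte lists exceeded both myoblast lists in fold enrichment. That direction is common, since fold was higher in myocytes at 73.2% to 85.1% of all shared regions, depending on the pair of lists. The reads at the summit at 333.6 kb did not follow that order (77, 89, 60 and 86).

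Of the regions present in all groups, the one at 267.5 kb (67127118 to 67128139) had the highest ratio of fold between stages in the deposited MyoD-null pair. In myoblasts its fold enrichment was 5.01 (wild type) and 4.82 (MyoD-null). In myocytes it was 10.5 in the deposited wild-type list and 9.64 in the other. The ratio of myocytes to myoblasts was 2.10 in the deposited wild-type pair and 2.0 in the deposited MyoD-null pair. Exchanging the myocyte lists, as the peak names would have it, gave 1.92 and 2.18. This region was thus higher in myocytes under either reading of the genotypes. So it was in relative height, with 5.50 and 5.27 in the myoblast lists and 22.3 and 11.7 in the myocyte lists. Most shared regions of the genome went the same way, 73.2% to 85.1% in fold and 79.8% to 92.7% in relative height, depending on the pair of lists.

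Other shared regions were high in 1 list. At 144.1 kb (67003861 to 67004473) the fold enrichments were 3.59, 3.14, 8.75 and 3.54, so that the myocytes deposited as wild type stood apart from the other 3 lists. At 98.3 kb (66957333 to 66958594) they were 4.47, 4.40, 6.90 and 4.63, and at 344.6 kb (67204321 to 67204945) 3.59, 3.77, 6.05 and 4.09. At 304.1 kb (67163745 to 67164247) they were 3.92, 3.52, 5.07 and 2.86. The local background at 144.1 and 344.6 kb was at the genome-wide level in all 4 lists, and the myocytes deposited as wild type were the highest there on both measures.

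In fold enrichment, a few regions departed from that order. At 311.8 kb (67171427 to 67172084) the fold enrichments were 5.10, 5.79, 5.25 and 4.77, and the relative heights were 6.48, 7.73, 6.05 and 5.37, highest in MyoD-null myoblasts on both measures. At 277.5 kb (67137179 to 67137696) the folds were 3.05, 3.56, 3.66 and 4.23. The region at 65.7 kb (66925561 to 66926600) had folds of 5.06, 3.86, 2.99 and 5.05, lowest in the myocytes deposited as wild type. Its relative heights were 7.09, 5.85, 8.13 and 7.26, highest in that same list. There the local background of that list was 2.59 times its genome-wide level, against 1.30 to 1.43 times in the other lists.

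Of the 3 regions listed everywhere but in the myocytes deposited as MyoD-null, 2 had a fold of at least 5 in another list. The region at 79.1 kb (66938743 to 66939524) had fold enrichments of 3.16 in wild-type myoblasts, 3.56 in the MyoD-null ones and 9.18 in the myocytes deposited as wild type. Its summit held 28, 33 and 111 reads. The region at 327.0 kb (67186743 to 67187254) had folds of 5.78, 4.84 and 7.95 in those lists, from 57, 50 and 49 reads. The region in both myoblast lists and neither myocyte list, at 63.9 kb (66923690 to 66924047), was weak, with folds of 2.91 and 3.28.

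Differentiation of wild-type cells, with the genotypes as deposited, went with more peaks over the cluster. Of the 43 myocyte peaks, 20 had no overlap in wild-type myoblasts. That is 46.5% (exact binomial 95% interval 31.2 to 62.3, which here and below covers counting error only), beside 30% of all myocyte peaks of that list. In the opposite direction 1 of 25 myoblast peaks (4.0%, interval 0.101 to 20.4) had no overlap in the myocytes, beside 18% of the whole list. The cluster share for myocytes was above that of the list, and the lower end of its interval was close to the list's share. Neighbouring peaks are not independent draws, so the interval does not test this difference. These 20 peaks had fold enrichments of 2.28 to 10.0, with a median of 4.43.

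In MyoD-null cells, as deposited, the count went the other way. None of the 19 myocyte peaks lacked an overlap in MyoD-null myoblasts, beside 16.2% of that list. The exact interval for 0 of 19 reaches up to 17.6%, which includes the share of the list. A rougher limit, 3 counts of 19, is 15.8% and lies slightly below that share. The count of 0 therefore cannot separate the cluster from the list. Of the 27 MyoD-null myoblast peaks, 7 had no overlap in these myocytes, which is 25.9% (11.1 to 46.3), beside 24.7% of the list. The latter share was near that of the whole list. Whether the change on differentiation differed between the genotypes could not be tested with 1 list a group.

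With the genotypes of the peak names the order was reversed. Against the myocytes named wild type, 5 of 25 wild-type myoblast peaks had no overlap (20%, interval 6.83 to 40.7), beside 22.3% of the list, and 0 of 19 myocyte peaks had none in wild-type myoblasts, beside 15.5%. Of the 43 peaks of the myocytes named MyoD-null, 21 were absent from MyoD-null myoblasts (48.8%, interval 33.3 to 64.5), beside 30% of that list. Of the 27 MyoD-null myoblast peaks, 4 were absent from them (14.8%, interval 4.19 to 33.7), beside 19.8% of that list. The surplus of peaks in the window therefore belongs to 1 myocyte list, and its genotype rests on which of the records is right.

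In the cluster, as over the whole lists, most peaks of myoblasts with and without MyoD overlapped. Of the 27 MyoD-null peaks, 3 had no overlap in wild-type myoblasts (11.1%, interval 2.35 to 29.2), beside 14.8% of the list. They lay at 95.5, 105.6 and 286.9 kb with fold enrichments of 2.83, 2.83 and 3.14, and 26, 26 and 29 reads at their summits. Of the 25 wild-type peaks, 1 had no overlap in MyoD-null myoblasts (4.0%, interval 0.101 to 20.4), beside 12.8% of the list. It lay at 60.7 kb with a fold enrichment of 2.61. Both intervals include the share of the whole list, so these counts cannot separate the cluster from the lists. For this pair the labels and the peak names give the same genotypes.

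At the 23 regions shared by the myoblast lists, the median log2 ratio of fold enrichment, MyoD-null over wild type, was 0.04, and over all 82889 shared regions it was 0.02. The ratios ran from -0.39 at 65.7 kb to 0.49 at 58.4 kb (66917955 to 66918848), where the folds were 2.37 (wild type) and 3.32 (MyoD-null). Relative height was higher in MyoD-null myoblasts at 12 of the 23 regions, beside 54.9% of all shared regions.

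The myocyte lists differed in which regions were listed. Of 43 peaks in the deposited wild-type list, 24 had no overlap in the list deposited as MyoD-null (55.8%, interval 39.9 to 70.9), beside 32% of the list. In the opposite direction 0 of 19 had none, beside 13.1% of the list, a share within the same exact interval. All cluster peaks of the myocytes deposited as MyoD-null were thus listed in the other myocytes too. By the peak names the same counts belong to the opposite genotypes.

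Along the window the peak counts were alike from 120 to 180 kb and from 240 to 300 kb, and from 180 to 240 kb 1 list alone had peaks. In the 6 successive stretches of 60 kb, wild-type myoblasts had 8, 7, 3, 0, 2 and 5 peaks and MyoD-null myoblasts had 8, 8, 3, 0, 3 and 5. The myocytes deposited as wild type had 12, 10, 3, 8, 3 and 7, and those deposited as MyoD-null had 8, 3, 2, 0, 2 and 4. The summed fold enrichment was highest in the first stretch in 3 lists (30.2, 31.5 and 37.3 in wild-type myoblasts, MyoD-null myoblasts and the myocytes deposited as MyoD-null). In the myocytes deposited as wild type it was highest in the second, at 51.6 beside 43.9 in the first.

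**Figure D2:**
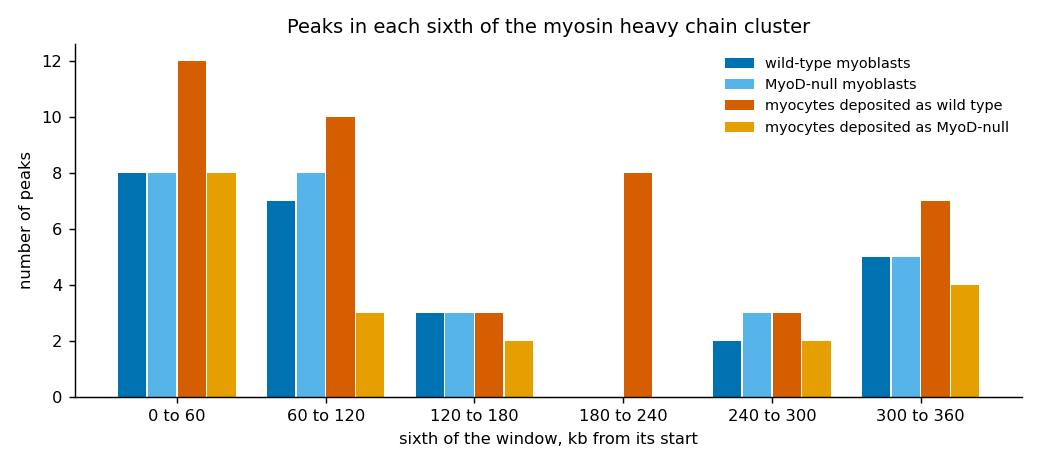
Number of cluster peaks (vertical axis) in each sixth of the window (horizontal axis, kb from the start of the window), with 1 bar per list. In the stretch from 180 to 240 kb the myocytes deposited as wild type have 8 peaks and the other 3 lists have 0, while from 120 to 180 kb all lists have 2 or 3.

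The widest difference was an empty stretch in the middle of the cluster. Both myoblast lists and the myocytes deposited as MyoD-null had no summit for 114 kb, from 153 to 267 kb. The myocytes deposited as wild type had 8 regions there and no gap longer than 33.7 kb in the whole window. The strongest, at 220.0 kb (67079479 to 67080427), had a fold enrichment of 10.0 from 72 reads and a width of 949 bp. At 230.6 kb (67090195 to 67091141) the fold was 6.77 from 107 reads, and at 191.1 kb (67050307 to 67051413) it was 5.73 from 42 reads. The other 5, at 180.4, 181.0, 189.3, 231.9 and 233.8 kb, had folds of 2.28 to 4.70.

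The remaining 12 regions of the myocytes deposited as wild type alone lay mostly in the first 120 kb of the window. Along the 6 stretches the 20 regions numbered 4, 5, 0, 8, 1 and 2. Outside the empty stretch the highest folds were 6.04 at 16.4 kb (66876167 to 66877137, 91 reads), 5.41 at 300.7 kb (67160517 to 67160997, 41 reads) and 5.09 at 12.8 kb (66872460 to 66872919, 75 reads). Summits of the 20 regions held 20 to 112 reads, with a median of 41.5. Their relative heights were 3.78 to 21.2. The smallest relative heights listed at the genome-wide background were 2.45, 2.46 and 2.68 in the other lists and 2.84 in this list. The limit of this list was thus already above the others, so comparing heights with those limits cannot show whether depth mattered. The local background of the 20 regions was 1 to 9.05 times the genome-wide level, with a median of 2.05. Whether depth or surroundings kept these regions out of the other lists was not tested.

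The surroundings of the peaks also differed between the lists, chiefly in the first 61 kb. The local background of the myocytes deposited as wild type reached 9.63 times the genome-wide level, at 33.9 kb, and only 0.167% of all peaks of that list had as much. The highest value in the cluster was 2.09 in wild-type myoblasts, 2.32 in MyoD-null myoblasts and 2.89 for the remaining list. The medians over cluster peaks were 1.27, 1.23, 2.36 and 1.51 in the usual order of lists, beside 1.26, 1.29, 1.42 and 1.38 in the whole lists. Of the 43 cluster peaks of the myocytes deposited as wild type, 8 lay above the 99th percentile of their list (6.89), and no cluster peak of the other lists did so.

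**Figure D3:**
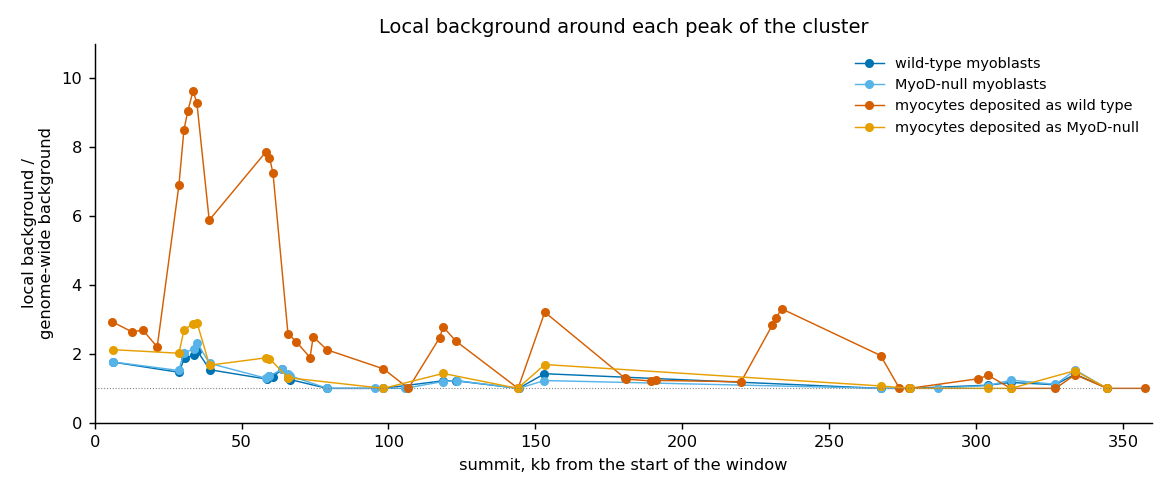
Local background around each cluster peak divided by the genome-wide background of its list (vertical axis, ratio) against the distance of the summit from the start of the window in kb (horizontal axis), 1 point per peak, with lines joining peaks of 1 list. Points of the myocytes deposited as wild type reach 9.63 near 34 kb and 7.88 near 58 kb, and the dotted line marks the genome-wide level of 1.

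In this stretch fold enrichment and read height disagreed. At 33.9 kb (66893412 to 66894037) the fold enrichments were 3.22, 2.79, 1.69 and 2.60, lowest in the deposited wild-type myocytes. The summit of that list held 87 reads over a local background of 50.9, against 54, 53 and 49 reads over 16.1, 18.4 and 18.2 in the other lists. At 39.1 kb (66898895 to 66899360) the folds were 3.46, 3.56, 1.87 and 3.53, and at 34.9 kb (66894629 to 66895132) 3.26, 3.41, 1.94 and 3.77. The relative heights at 34.9 kb were 7.09, 8.19, 18.2 and 11.4. More reads therefore lay at these sites in the deposited wild-type list, and they stood out less from their surroundings.

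Other sites of this stretch were taller in that list than in the myoblasts on both measures. At 28.7 kb (66888405 to 66888978) the summits held 38, 46, 135 and 53 reads and the folds were 3.00, 3.36, 3.63 and 3.91. At 59.5 kb (66919121 to 66919778) they held 34, 38, 150 and 64 reads, with relative heights of 4.16, 4.45, 28.4 and 10.1. The folds there were 2.87, 3.11, 3.62 and 5.07. At both sites the myocytes deposited as MyoD-null had the highest fold while the other myocytes had the highest relative height.

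Over the shared regions the measure set the size of the difference between stages. At the 23 regions shared by the myocytes deposited as wild type and wild-type myoblasts, the median log2 ratio of fold was 0.23. Over all 77469 regions shared by those lists it was 0.35. Fold was higher in these myocytes at 17 of the 23 regions, beside 85.1% of all shared regions. On relative height the median was 1.29 in the cluster and 0.69 over all regions. Relative height was higher in these myocytes at 22 of the 23 regions, beside 92.7% of all shared regions, so this count is near the background of the list while the median is larger. The median log2 ratio of local background was 0.99 in the cluster and 0.20 over all regions. By definition, relative height is close to fold enrichment times local background over the genome-wide level. At each region the log2 ratios of the measures therefore differ by about that of local background. Why the local background differed was not tested.

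For MyoD-null cells as deposited the cluster followed the genome. At the 19 shared regions the median log2 ratio of fold was 0.19, beside 0.17 over all 72860 regions. On relative height it was 0.38 beside 0.36. Relative height was higher in these myocytes at 16 of 19 regions, beside 79.8% of all shared regions. The ratios of fold ran from -0.30 at 304.1 kb to 1.0 at 267.5 kb.

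**Figure D4:**
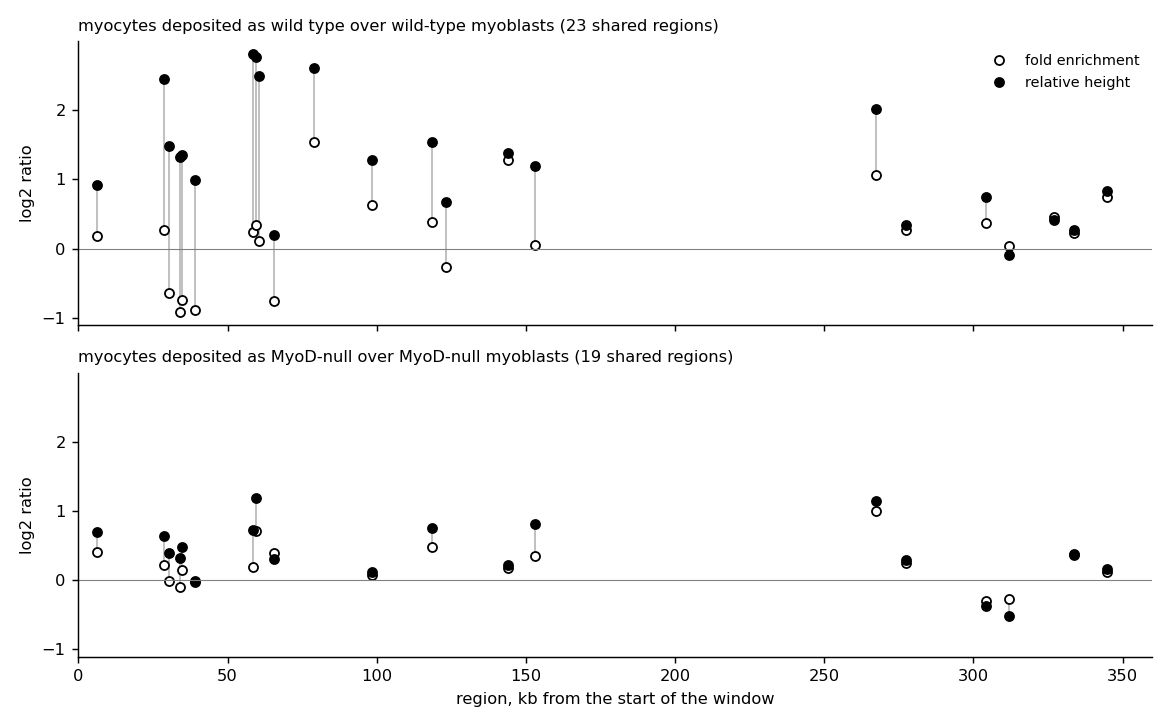
Log2 ratio of myocytes over myoblasts (vertical axis) at each region shared by the lists of a pair against its distance from the start of the window in kb (horizontal axis), with the deposited wild-type pair above and the deposited MyoD-null pair below. Open points give fold enrichment, filled points relative height and grey lines join the measures of 1 region. In the upper panel the measures are far apart before 61 kb and close after 277 kb.

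By the peak names the pairs exchange their myocyte lists. The median log2 ratio of fold was then 0.21 in wild type (0.18 over all regions) and 0.15 in MyoD-null cells (0.34). On relative height the wild-type median was 0.53 (0.37 over all regions) and the MyoD-null median 1.23 (0.69). Relative height was higher in myocytes at 17 of 19 wild-type regions, beside 81.2%, and at 21 of 22 MyoD-null ones, beside 91.9%. On relative height the larger medians, 1.29 and 1.23, were those of the myocytes deposited as wild type, whichever myoblast list they were set against. The 4 medians of fold, 0.15 to 0.23, lay close together and showed no such order.

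Between the myocyte lists the direction at shared regions turned with the measure. The median log2 ratio of fold, deposited MyoD-null over deposited wild type, was 0.20 over 19 regions, with 13 higher in the list deposited as MyoD-null, beside -0.16 over all 75157 regions. On relative height it was -0.82, beside -0.34 over all regions. Relative height was higher in the list deposited as MyoD-null at 2 of the 19 regions, beside 19.4% of all shared regions. The log2 ratio of local background, by which the measures differ by definition, had a median of -0.93 in the cluster and -0.10 over all regions. Why the local background differed between the myocyte lists was not tested.

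Near the end of the window the surroundings of the peaks were alike. Beyond 267.5 kb the local background did not exceed 1.53 times the genome-wide level at any cluster peak. The relative heights at 333.6 kb were 9.41, 10.4, 11.4 and 13.6, and those at 277.5 kb were 3.30, 3.86, 4.16 and 4.73. At both sites the myocytes deposited as MyoD-null were the highest, which on relative height was so at no other region shared by the myocyte lists.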

How the data were processed

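ATAC-seq of mouse myoblasts and myocytes was analysed through its 4 peak lists (1 list per group, 3 samples per group). Per the submitters' processing notes, the build was mm9 and MACS2 and deepTools were used, without versions. Peak names in the deposited lists refer to merged alignments with a MAPQ30 tag, so replicates were pooled before calling. For the aligner, the settings of the caller and any shift of reads for the transposase, nothing is given in the sources used here.

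The deposited fold enrichment is a ratio of summit reads to local background, made by the authors' peak caller. For each peak the deposited lists also give −log10 p and −log10 q, and the lowest −log10 q in the lists was 2.02 to 2.04. The deposited score was not used for any value, and the deposited summit offset gave the summit position. Folds are compared between lists only at the same region, beside the values over all regions.

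Whole-number summit pileups and local backgrounds were recovered from each fold, taken as (pileup + 1) / (local background + 1), and from its −log10 p. A Poisson probability computed from them matched the deposited −log10 p within 0.01 for 100% of peaks. Read totals per sample are unknown. Reads are not independent molecules, so intervals cover counting error only.

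Only chromosomes 1 to 19, X and Y were used, and 2 or 3 peaks per list lay elsewhere. Overlap meant at least 1 bp, regions were peaks of all 4 lists merged, and where a list had several peaks in a region the highest was used. Named regions had a fold of at least 5 in any list, or were present in the myocyte or the myoblast lists only, or had the highest fold among regions of 1 list, or were among the 3 highest or lowest fold ratios of a compared pair. The weaker regions of MyoD-null myoblasts alone, the region at 60.7 kb and the weaker regions of the empty stretch were named after their values were seen. Members, lists and rules were chosen with earlier results of these data known. Planned lists of cell type markers and sarcomere genes were not used, since peaks were not assigned to genes, so the labelled cell types were not checked against markers. Intervals are exact binomial (Clopper-Pearson) at 95%. Alternatives were a −log10 q of at least 5, a minimum fold of 5, equal list lengths (88233 peaks), a reciprocal overlap of 50%, summits within 250 bp, a window 30 kb longer or shorter at each end, relative height in place of fold, peak numbers in place of summed fold, and the genotypes of the peak names. Scripts ran in Python 3.11.15 with matplotlib 3.10.9, scipy 1.17.1, pandas 2.3.3 and numpy 2.4.6, and the steps were tested on simulated peaks.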

Additional observations from a re-analysis of the deposited data

Results flagged for a closer look

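On differentiation, wild-type cells as deposited had more cluster peaks and MyoD-null cells as deposited had fewer. The number of cluster peaks changed by 18 in wild-type cells as deposited, from 25 to 43. In MyoD-null cells as deposited it changed by -8, from 27 to 19. The whole lists moved in the same directions, from 98097 to 112030 peaks in wild-type cells and from 101755 to 88233 in MyoD-null cells. With the genotypes of the peak names the changes were -6 in wild-type and 16 in MyoD-null cells. The directions of the whole lists were again the same, from 98097 to 88233 and from 101755 to 112030. This difference was not tested, since each group has 1 list.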

How the results depend on the processing

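Of 117 values recomputed under an alternative, 79 stayed close to the main one (counts within 1.5 times, medians within the spread of regions), 36 moved and 2 reversed. With peaks of a fold of at least 5, the cluster counts were 8, 5, 18 and 7 (wild-type myoblasts, MyoD-null myoblasts, myocytes deposited as wild type, myocytes deposited as MyoD-null). Myocyte peaks without overlap then numbered 11 in wild type and 3 in MyoD-null cells, MyoD-null myoblast peaks absent from myocytes 1, and between myoblasts 0 were MyoD-null alone and 3 wild type alone. Between myocytes 2 were then in the list deposited as MyoD-null alone and 13 in the other alone. A fixed fold also removes a shared peak in the list where it is weaker. In the whole lists 24.5%, 24.3%, 46.9% and 39.8% of peaks reached that fold, in the same order. Shares without overlap over the whole lists are not given for the alternatives. These counts and those below therefore cannot be set against such shares. The wild-type myoblast peaks absent from wild-type myocytes (1) became 3 with a −log10 q of at least 5, 6 with lists of equal length, 9 with a reciprocal overlap of 50%, 3 with summits within 250 bp, 3 with the longer window and 5 with the genotypes of the peak names. MyoD-null myocyte peaks absent from MyoD-null myoblasts (0) became 2 with the reciprocal overlap, 2 by summits and 1 with the longer window. Wild-type myoblast peaks absent from MyoD-null myoblasts (1) became 0 with the −log10 q limit, 0 with equal lists and 3 with the longer window. Peaks of the myocytes deposited as MyoD-null absent from the other myocytes (0) became 2 with the −log10 q limit, 4 with equal lists, 4 with the reciprocal overlap, 1 by summits and 1 with the longer window. With the genotypes of the peak names, myocyte peaks absent from myoblasts became 0 in wild type and 21 in MyoD-null cells, MyoD-null myoblast peaks absent from myocytes 4, and the counts between myocytes 24 for MyoD-null and 0 for wild type. That reading turned the median log2 ratio of fold between the myocytes to -0.20. Relative height gave medians of 1.29 for wild-type and 0.38 for MyoD-null differentiation and turned the one between the myocytes to -0.82. By number of peaks in place of summed fold, the myocytes deposited as wild type were highest in sixth 1 of the window. The cause of these changes was not tested. With lists of equal length the cluster counts were 22, 24, 33 and 19. No paired analysis was possible because each group has 1 list called on merged replicates.

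Depth limits what is missing from a list: summits needed 15 to 21 reads over the genome-wide background, and more where the surroundings were higher.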
